A study of Mus musculus with 18 samples.

Results

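The genes described here were chosen by their levels in a pair of mouse fibroblast lines: expressed in the line with the S51A form of eIF2α and low in the wild-type (WT) line at every time measured. A gene entered the set if all 3 deposited tables listed it, S51A was at least 5 FPKM in each, and WT was at most 1 FPKM in each. FPKM is a read count corrected for the length of the transcript and the size of the library, so levels of different genes can be set side by side. Genes on sex chromosomes and gene names that start with Hox, Col, Irx, Rhox, Psmb or Zfp were left out. The rule found 40 genes among the 3826 single-symbol genes listed in all 3 tables. The same limits with the lines exchanged, silent in S51A and expressed in WT, found 15 genes.

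The study measured polyadenylated RNA of the S51A line and of the WT line, both immortalized mouse embryonic fibroblasts, at 0, 15 and 120 min of 500 µM hydrogen peroxide, an oxidant (0 min is untreated). In S51A, the regulatory serine of the translation initiation factor eIF2α, which stress kinases phosphorylate to slow protein synthesis, is replaced by alanine. By the labels there are 18 samples, 3 in each of 6 groups, although the design text mentions duplicates, and nothing says whether they came from separate cultures. The deposited tables give 1 value per group and gene, so the spread between samples, the depth and the number of samples behind a value are unknown. No standard deviation can be given. Each genotype is represented by 1 line, so the S51A allele and the history of a line cannot be told apart. In bulk RNA, fewer cells expressing a gene and less RNA per cell cannot be told apart.

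Fibroblasts from different parts of an embryo carry different sets of transcription factors, matrix proteins and surface receptors, which they tend to keep in culture. Genes of other positions or lineages usually stay at very low transcript levels. Patterning factors of the homeobox, zinc-finger and T-box families are known for marking body position, and many of them start from promoters rich in the dinucleotide CpG.

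Because the levels of both lines chose the genes, the levels and their differences are a description, with no test. WT values of up to 1 FPKM are low, and "silent" means no more than that. At 0 min, 120 of 7549 single-symbol genes met both limits, which is 1.59% of the table, against 0.49% for the reversed limits. At 15 min, 138 of 8289 genes did (1.66%, against 0.507% reversed), and at 120 min 82 of 6105 did (1.34%, against 0.508% reversed). Of the genes that met the limits at 0, 15 and 120 min, 113, 129 and 78 passed the filter on names and chromosomes, and 91, 103 and 63 of these stood in all 3 tables. The filter on names and chromosomes left out 2 genes that met the limits at every time, Psmb8 on chromosome 17 and Rhox12 on chromosome X. Every listed gene had been called different between the lines by the authors, and 49.6%, 49.9% and 50.9% of single-symbol genes were higher in S51A at 0, 15 and 120 min. In the authors' deposited tables, 35, 36 and 27 of the 40 genes had the lowest q-value of the table at 0, 15 and 120 min (1.18e-04, 1.02e-04 and 1.98e-04). The share of all listed genes at these values was not counted. The rule asks for a large difference between the lines, so nothing is read from these counts. The highest q-values among them were 0.0194 and 0.0460, both of Cnn1, at 0 and 15 min, and 0.0484, of Cxcl5, at 120 min, in the authors' deposited tables.

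**Figure D1:**
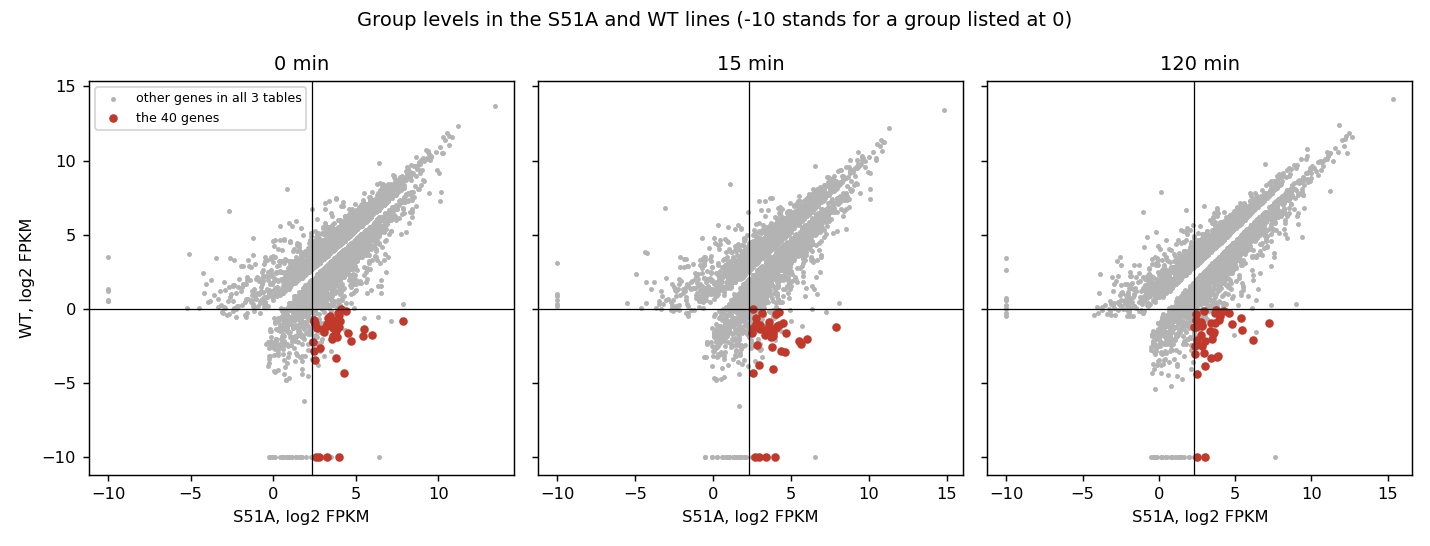
Group levels of the 3826 genes listed in all 3 tables, with log2 FPKM in S51A on the x axis and log2 FPKM in WT on the y axis, 1 panel per time. Red points are the 40 genes, black lines the limits of 5 FPKM in S51A and 1 FPKM in WT, and -10 stands for a group listed at 0; the empty diagonal band is where the tables list no gene, and the 40 genes sit in the lower right corner at all times.

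The S51A levels of the 40 genes lay near the middle of the tables. Their median was 11.9, 12.9 and 10.4 FPKM in S51A at 0, 15 and 120 min, against 0.391, 0.323 and 0.394 FPKM in WT. The median gene of the set lay above 44.3%, 48.1% and 47.1% of all listed genes in S51A, and Ogn above 97.0%, 97.5% and 92.7%. Where WT was above 0, the fold of S51A over WT had a median of 26.9 over 36 genes at 0 min, 38.9 over 36 genes at 15 min and 29.7 over 38 genes at 120 min. It ran between 9.38 (Nat2) and 410 (Ogn) at 0 min, between 5.98 (Insl6) and 549 (Ogn) at 15 min, and between 6.92 (Fam189b) and 311 (Cd34) at 120 min. These folds have a low denominator and no replicate error. Between 0 and 15 min, the S51A values of the 36 genes above 0 in WT at all times differed by a median of 0.125 on the log2 scale, without regard to sign, against 0.565 for the WT values of the same genes. A total of 19 genes had every S51A value over 10 FPKM, and 21 had every WT value under 0.5 FPKM.

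The limits cut through a continuum. Just inside the WT limit were Oasl2 (highest WT value 1.00 FPKM), Insl6 (0.979), Usp18 (0.953) and Cbr3 (0.889). Just outside were Mme (1.01 FPKM), Ppbp (1.02), Pdpn (1.04) and Scrn1 (1.04), of which Pdpn, a surface glycoprotein of stromal cells, had at least 67.6 FPKM in S51A. Just inside the S51A limit were Nat2 (lowest S51A value 5.10 FPKM), Slco1a5 (5.21) and Rgs4 (5.24), and just outside were Itga11 (4.96), Cercam (4.89), H2-DMb1 (4.89) and Cnih2 (4.79).

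Both lines carried fibroblast transcripts. Of 12 fibroblast markers, 10 were listed at 0 min, 6 of them higher and 4 lower in S51A, with a summed level of 3838 FPKM in S51A and 2636 FPKM in WT. At 15 min 5 were higher and 5 lower (summed 3516 FPKM in S51A and 2291 FPKM in WT), and at 120 min 4 were higher and 3 lower (summed 1532 FPKM in S51A and 451 FPKM in WT). The sums cover the genes listed at that time, and Vim, at 1136 FPKM in S51A and 1652 FPKM in WT at 15 min, was not listed at 120 min, so sums cannot be compared between times. Col1a1, the α1 chain of type I collagen, was at 1160, 1090 and 695 FPKM in S51A and at 241, 265 and 202 FPKM in WT. Dcn, the matrix proteoglycan decorin, went the other way, at 8.88, 9.13 and 10.9 FPKM in S51A and 54.2, 49.5 and 56.1 FPKM in WT. Few markers of other cell types were listed, which does not show that the rest were low. None of 10 germ line and pluripotency markers stood in a table. Of 12 epithelial markers 1 was listed, Krt19, higher in S51A at every time (summed level 8.17, 10.1 and 21.7 FPKM in S51A, against 6.06, 5.21 and 8.40 FPKM in WT), and of 10 endothelial markers 1 was, Egfl7, at 15 min (7.41 FPKM in S51A, 3.89 FPKM in WT) and at 120 min (14.1 FPKM in S51A, 5.78 FPKM in WT). The endothelial genes Pecam1 and Cdh5 were in no table, which says that they were not listed as different, not that they are at 0. Of 8 mesothelial markers Msln alone was listed, higher in S51A, at a summed 12.6, 12.7 and 13.5 FPKM in S51A and 5.98, 4.79 and 4.82 FPKM in WT. Of 11 blood and macrophage markers, 0 were higher and 3 lower at 0 min, 1 and 1 at 15 min, and 0 and 1 at 120 min (summed 12.1, 12.9 and 0.165 FPKM in S51A and 19.2, 15.1 and 0.758 FPKM in WT). For 10 skeletal muscle markers the counts were 1 higher and 0 lower at 0 min, 2 and 0 at 15 min, and 1 and 0 at 120 min (summed 3.16, 4.34 and 1.64 FPKM in S51A and 0.274, 0.472 and 0.275 FPKM in WT). For 10 neuronal and glial markers they were 1 and 3, 1 and 2, and 1 and 2 (summed 113, 111 and 104 FPKM in S51A and 75, 79.2 and 68.4 FPKM in WT). The higher one was Tubb3, a tubulin of neurons, at 74.0, 74.5 and 72.0 FPKM in S51A and 16.2, 16.4 and 15.3 FPKM in WT. For 12 cartilage and bone markers the counts were 0 and 2, 0 and 2, and 1 and 1 (summed 19.7, 20.4 and 9.93 FPKM in S51A and 33.9, 37.1 and 21.3 FPKM in WT). Of 9 markers of the kidney and urogenital ridge, 3 were higher and 1 lower at 0 and 15 min, and 2 higher and 1 lower at 120 min (summed 51.7, 51.1 and 9.95 FPKM in S51A and 44.4, 48.2 and 11.4 FPKM in WT). Whether a mixture of cells plays a part in the levels of the 40 genes was not tested.

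Promoter windows were available for 24 of the 40 genes, 60% of the set, which is too few for a statement on the set as a whole. The windows reach from 250 bases before to 50 bases after the start in RefSeq, build GRCm38.p6 (mm10). Those of 6 genes are printed here, 5′ to 3′ on the gene's own strand, because they show how unlike the starts of genes with the same expression pattern are; capitals mark each CpG dinucleotide. The first pair are genes that start within 1 kb of the start of a coding gene on the opposite strand. The next pair are patterning factors, and the last pair are the genes with the highest S51A levels. Ccdc122 is at chr14:77036522-77036821 (plus strand), Gpc2 at chr5:138279888-138280187 (minus), Zic1 at chr9:91365719-91366018 (minus), Barx1 at chr13:48662786-48663085 (plus), Cd34 at chr1:194938571-194938870 (plus) and Ogn at chr13:49607765-49608064 (plus).
Ccdc122: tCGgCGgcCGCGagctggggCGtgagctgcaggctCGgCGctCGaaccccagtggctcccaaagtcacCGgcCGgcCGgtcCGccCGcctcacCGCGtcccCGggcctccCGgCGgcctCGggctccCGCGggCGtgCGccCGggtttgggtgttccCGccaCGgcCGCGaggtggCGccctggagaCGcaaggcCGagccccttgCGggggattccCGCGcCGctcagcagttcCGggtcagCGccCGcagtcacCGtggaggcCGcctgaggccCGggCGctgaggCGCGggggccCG
Gpc2: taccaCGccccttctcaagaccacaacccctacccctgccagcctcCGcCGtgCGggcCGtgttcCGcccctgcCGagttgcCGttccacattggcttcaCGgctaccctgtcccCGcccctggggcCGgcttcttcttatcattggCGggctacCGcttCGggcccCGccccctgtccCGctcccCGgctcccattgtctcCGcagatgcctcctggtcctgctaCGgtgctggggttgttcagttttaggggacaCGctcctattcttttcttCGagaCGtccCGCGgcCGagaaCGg
Zic1: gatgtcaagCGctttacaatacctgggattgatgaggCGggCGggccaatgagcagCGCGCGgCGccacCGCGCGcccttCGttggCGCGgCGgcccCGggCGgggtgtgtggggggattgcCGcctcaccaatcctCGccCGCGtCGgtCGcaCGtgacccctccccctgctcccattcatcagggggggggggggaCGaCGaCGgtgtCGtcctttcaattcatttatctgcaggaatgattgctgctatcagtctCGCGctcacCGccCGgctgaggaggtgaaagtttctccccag
Barx1: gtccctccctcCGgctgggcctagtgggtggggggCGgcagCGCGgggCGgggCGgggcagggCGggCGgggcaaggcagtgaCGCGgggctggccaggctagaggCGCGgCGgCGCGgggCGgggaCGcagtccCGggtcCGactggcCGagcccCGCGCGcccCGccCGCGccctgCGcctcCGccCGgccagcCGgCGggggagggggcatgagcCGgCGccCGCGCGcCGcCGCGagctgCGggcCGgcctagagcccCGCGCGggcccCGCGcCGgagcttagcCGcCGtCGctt
Cd34: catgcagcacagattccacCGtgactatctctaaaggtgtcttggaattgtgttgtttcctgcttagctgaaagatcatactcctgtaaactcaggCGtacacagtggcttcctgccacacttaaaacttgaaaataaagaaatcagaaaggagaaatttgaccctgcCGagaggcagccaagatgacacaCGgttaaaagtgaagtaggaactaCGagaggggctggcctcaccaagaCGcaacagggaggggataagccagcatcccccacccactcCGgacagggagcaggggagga
Ogn: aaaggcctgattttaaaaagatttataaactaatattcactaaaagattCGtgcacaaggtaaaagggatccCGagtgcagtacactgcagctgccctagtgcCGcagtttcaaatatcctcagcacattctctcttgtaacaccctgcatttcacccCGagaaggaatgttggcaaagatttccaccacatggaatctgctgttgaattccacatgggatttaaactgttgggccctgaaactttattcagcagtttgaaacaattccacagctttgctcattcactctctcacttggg

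The Ccdc122 window held 45 CpG dinucleotides in 300 bases, Gpc2 26, Zic1 31, Barx1 50, Cd34 7 and Ogn 4. The ratio of observed to expected CpG, which corrects for base composition, was 0.97 in Zic1, 0.96 in Ccdc122, 0.94 in Barx1 and 0.85 in Gpc2. It was 0.37 in Cd34 and 0.30 in Ogn. With the first listed start taken for each gene, the lowest ratio of the 24 genes was that of Il1rn, 0.05. Other starts of Il1rn had ratios of 0.33 and 0.26. With a ratio of at least 0.6 and a GC content of at least 50% taken as CpG-rich, 11 of the 24 windows passed: those of the 4 genes just named with high ratios, and those of Npepl1 (0.80), Isyna1 (0.75), Slc1a6 (0.75), Cbr3 (0.70), Cldn1 (0.64), Rgs4 (0.62) and Steap4 (0.60). For scale, 33.5% of all 27025 genes in the promoter table passed, and 68.4% of the 2968 genes listed in all 3 tables that had a window. No reading of the set was made from these shares.

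The set held 4 transcription regulators. Barx1 and Eya2 were the only genes listed at 0 in WT at all 3 times, and Zic1 and Dkk3 were listed at 0 at both 0 and 15 min. Across the tables, 1.09%, 1.34% and 1.28% of single-symbol genes were listed at 0 in WT at 0, 15 and 120 min. No fold is given against a value of 0. Barx1 (chr13:48663036-48666507, plus strand), a homeodomain factor of stomach and tooth mesenchyme, had 6.77, 7.67 and 8.17 FPKM in S51A at 0, 15 and 120 min, against 0 FPKM in WT throughout. Eya2, a phosphatase and coactivator that works with homeodomain proteins, had between 5.70 and 6.36 FPKM in S51A, also against 0 in WT. Zic1 (chr9:91358058-91365768, minus strand), a zinc-finger factor of the neural tube and dorsal mesoderm, had 9.45, 10.5 and 5.74 FPKM in S51A, against 0, 0 and 0.0477 FPKM in WT. At 120 min that is a 120-fold difference on a WT value close to 0. Vdr, the nuclear receptor for vitamin D, had 6.87 to 8.46 FPKM in S51A and 0.344 to 0.536 FPKM in WT.

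Zic1 and Barx1 belong to a list of 102 patterning factors outside the Hox clusters, written with earlier results of these data known. Of that list, 27 were higher and 15 lower in S51A at 0 min, 28 higher and 17 lower at 15 min, and 22 higher and 15 lower at 120 min. The median log2 ratio of the listed factors was 1.64, 1.26 and 1.07 at 0, 15 and 120 min, against -0.27, -0.20 and 0.42 for all single-symbol genes of the same tables. Several further factors were at 0 in WT at all times but fell short of 5 FPKM in S51A at one time or more. Pax8, a paired-box factor of kidney and thyroid, was at 11.2, 11.4 and 3.16 FPKM in S51A, and Tbx1, a T-box factor of the pharynx, at 7.62, 8.94 and 2.23 FPKM, both against 0 in WT. The list also held factors with the opposite pattern. Pax1, a paired-box factor of the sclerotome, was at 1.34, 1.22 and 0.877 FPKM in S51A and 48.5, 50.2 and 36.8 FPKM in WT. The nuclear receptor gene Nr2f1 was at 1.09, 1.39 and 1.58 FPKM in S51A and 25.1, 20.5 and 16.7 FPKM in WT. The 2 lines thus differed in patterning factors in both directions.

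Secreted and matrix proteins made up 9 of the 40 genes and included the gene with the highest level. The classes serve the description only, and their shares over all listed genes were not counted. Ogn (chr13:49608015-49624501, plus strand) encodes osteoglycin, a small leucine-rich proteoglycan that binds collagen fibrils. It had 229, 237 and 152 FPKM in S51A, against 0.559, 0.432 and 0.511 FPKM in WT, which is 410-fold, 549-fold and 298-fold. The deposited locus of Ogn spans 188673 bp and covers 5 other coding genes, Aspn among them, so reads of these may be part of its value. Of 16 small leucine-rich proteoglycan genes, 2 were higher and 3 lower in S51A at 0 and 15 min, and 3 were higher and 2 lower at 120 min. The listed genes were not the same at each time. Podnl1, lower in S51A, was listed at 0 and 15 min alone, and Aspn, higher in S51A, at 120 min alone. Bgn, biglycan, was lower in S51A, at 465, 434 and 338 FPKM in S51A and 584, 671 and 671 FPKM in WT.

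Ptn encodes pleiotrophin, a heparin-binding growth factor, and had 21.1, 22 and 24.3 FPKM in S51A, against 0.889, 0.521 and 0.824 FPKM in WT. Dkk3, a secreted glycoprotein of the Dickkopf family, had 15.7, 15.6 and 13.7 FPKM in S51A, against 0, 0 and 0.102 FPKM in WT. Postn, the matricellular protein periostin, had 12.7 to 14.5 FPKM in S51A and 0.314 to 0.807 FPKM in WT. Dkk3 belongs to a list of 41 Wnt and BMP ligands and antagonists, of which 20, 22 and 17 were listed at 0, 15 and 120 min. Of these, 14 were higher and 6 lower in S51A at 0 min, 17 and 5 at 15 min, and 14 and 3 at 120 min. The median log2 ratio of the listed genes, Dkk3 among them, was 2.35, 2.15 and 1.73, against -0.27, -0.20 and 0.42 for all single-symbol genes. Of all single-symbol genes, 49.6%, 49.9% and 50.9% were higher in S51A. Among the lower ones, Grem1, the BMP antagonist gremlin, had 1.78, 2.14 and 1.08 FPKM in S51A and 272, 347 and 232 FPKM in WT.

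Il1rn, Cxcl5 and Clu act in inflammation and complement. Il1rn, the antagonist of the interleukin-1 receptor, had 12.1, 13.2 and 7.01 FPKM in S51A, against 0.285, 0.346 and 0.454 FPKM in WT. Cxcl5, a chemokine for neutrophils, had 9.38 to 10.5 FPKM in S51A and 0.0981 to 0.490 FPKM in WT. Clu, the extracellular chaperone clusterin, had 10.9, 12.8 and 13.1 FPKM in S51A, against 0.727, 0.299 and 0.514 FPKM in WT. Of 26 complement genes, 8 were higher and 0 lower at 0 min, and 7 were higher and 1 lower at 15 and 120 min, with a median log2 ratio of 3.75, 4.0 and 3.46 over the listed genes. For all single-symbol genes the median was -0.27, -0.20 and 0.42, and 49.6%, 49.9% and 50.9% were higher in S51A. C1s1, a protease of the first complement component, was over the WT limit at every time, with 26.5, 28.8 and 19.7 FPKM in S51A and 1.34, 1.62 and 1.32 FPKM in WT. Insl6, an insulin-like peptide known from the testis, had 5.58, 5.86 and 7.78 FPKM in S51A, against 0.529, 0.979 and 0.889 FPKM in WT, and its 15 min fold of 5.98 was the lowest of the set at any time.

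**Figure D2:**
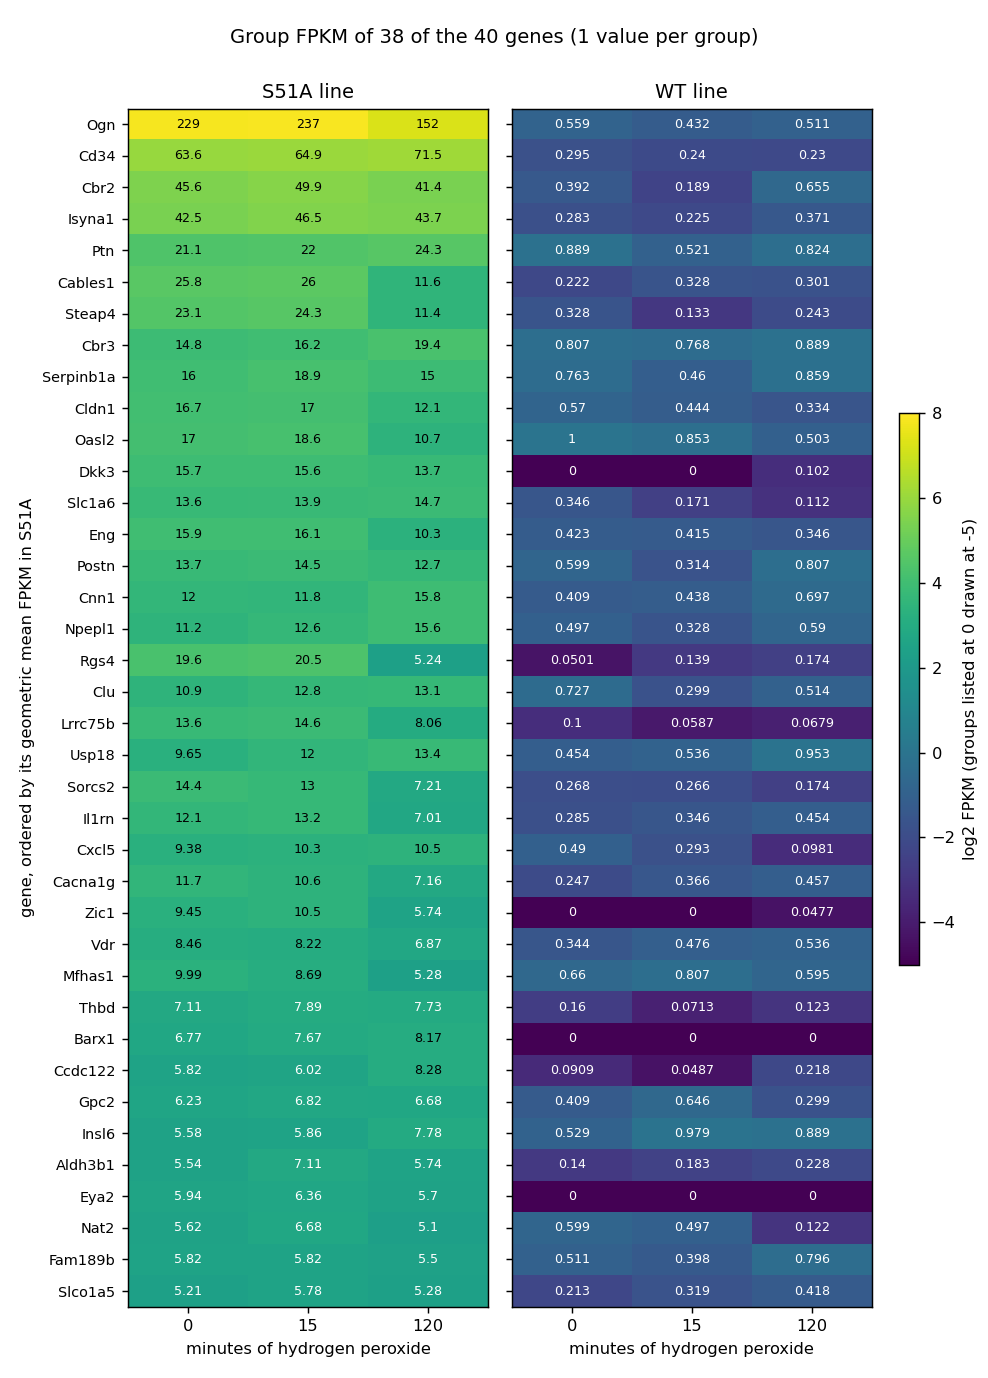
Group FPKM of 38 of the 40 genes at 0, 15 and 120 min of hydrogen peroxide in S51A (left) and WT (right), with the value in each cell and color for log2 FPKM. Genes are ordered by their geometric mean in S51A, which ran from 202 (Ogn) down to 5.41 (Slco1a5); no S51A value is below 5 FPKM and no WT value is above 1 FPKM, as the choice of genes requires.

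Proteins of the cell surface and other membranes were 10 of the 40 genes, again without a share over all listed genes. Cd34 (chr1:194938821-194961292, plus strand), a sialomucin of blood progenitors, endothelium and some fibroblasts, had 63.6, 64.9 and 71.5 FPKM in S51A, against 0.295, 0.240 and 0.230 FPKM in WT. The fold was 215, 271 and 311. Eng, the TGF-β co-receptor endoglin, had 10.3 to 16.1 FPKM in S51A and 0.346 to 0.423 FPKM in WT. Thbd, the thrombin receptor thrombomodulin, had 7.11 to 7.89 FPKM in S51A and 0.0713 to 0.160 FPKM in WT. Endothelial cells use all 3 of these genes, and of the 10 endothelial markers Egfl7 alone was listed, with the values given above.

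Steap4, a metalloreductase, had 23.1, 24.3 and 11.4 FPKM in S51A, against 0.328, 0.133 and 0.243 FPKM in WT. Sorcs2, a sorting receptor for neurotrophin signalling, had 14.4, 13.0 and 7.21 FPKM in S51A, against 0.268, 0.266 and 0.174 FPKM in WT. Cldn1, a claudin of tight junctions, had 12.1 to 17.0 FPKM in S51A and 0.334 to 0.570 FPKM in WT. A pair of genes known mainly from neurons were in this class. Slc1a6, a glutamate transporter of Purkinje cells, had 13.6 to 14.7 FPKM in S51A and 0.112 to 0.346 FPKM in WT, and Cacna1g, the pore of a T-type calcium channel, had 7.16 to 11.7 FPKM in S51A and 0.247 to 0.457 FPKM in WT. Gpc2 (chr5:138273657-138280026, minus strand), a glypican of the developing nervous system, had 6.23 to 6.82 FPKM in S51A and 0.299 to 0.646 FPKM in WT. Slco1a5, an organic anion transporter, had the lowest geometric mean in S51A of all 40 genes, with 5.21, 5.78 and 5.28 FPKM in S51A, against 0.213, 0.319 and 0.418 FPKM in WT, and may share reads with its close relative Slco1a6.

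Several genes encode enzymes of metabolism. Cbr2, a carbonyl reductase of the lung, had 45.6, 49.9 and 41.4 FPKM in S51A, against 0.392, 0.189 and 0.655 FPKM in WT. Cbr3, another carbonyl reductase, had 14.8, 16.2 and 19.4 FPKM in S51A, against 0.807, 0.768 and 0.889 FPKM in WT. Isyna1, which makes inositol phosphate from glucose 6-phosphate, had 42.5, 46.5 and 43.7 FPKM in S51A, against 0.283, 0.225 and 0.371 FPKM in WT. Npepl1, a probable aminopeptidase, had 11.2, 12.6 and 15.6 FPKM in S51A, against 0.497, 0.328 and 0.590 FPKM in WT. Aldh3b1, an aldehyde dehydrogenase, had 5.54 to 7.11 FPKM in S51A and 0.140 to 0.228 FPKM in WT, and Nat2, an arylamine acetyltransferase, had 5.62, 6.68 and 5.10 FPKM in S51A, against 0.599, 0.497 and 0.122 FPKM in WT.

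Both interferon-stimulated genes of the set lay next to the WT limit. Oasl2, a relative of the oligoadenylate synthetases, had 17.0, 18.6 and 10.7 FPKM in S51A, against 1.00, 0.853 and 0.503 FPKM in WT. Usp18, a protease that removes ISG15 from proteins and dampens interferon receptor signalling, had 9.65, 12.0 and 13.4 FPKM in S51A, against 0.454, 0.536 and 0.953 FPKM in WT. Of 61 interferon-stimulated genes in a list made with earlier results known, 42 were higher and 1 lower at 0 min, 45 and 1 at 15 min, and 40 and 1 at 120 min. Their median log2 ratio was 2.29, 2.43 and 2.44. The exception each time was Oasl1, which lies 10.9 kb from Oasl2, at 1.8, 2.01 and 2.91 FPKM in S51A and 5.62, 5.10 and 5.90 FPKM in WT. Class I antigen presentation genes were higher in S51A for 13 of 13, 14 of 14 and 14 of 14 listed genes. For all single-symbol genes the shares were 49.6%, 49.9% and 50.9%. None of this list was in the set, but Psmb8 was left out by its name alone. It met both limits at every time, with 43.4, 53.1 and 81.0 FPKM in S51A and 0.268, 0.444 and 0.334 FPKM in WT.

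Of the 5 genes classed under intracellular signalling and other roles, Rgs4 showed the widest range. Rgs4, which speeds GTP hydrolysis by G protein α subunits, had 19.6, 20.5 and 5.24 FPKM in S51A, against 0.0501, 0.139 and 0.174 FPKM in WT, a fold of 391, 148 and 30.1. Cables1, an adaptor of cyclin-dependent kinases, had 25.8, 26.0 and 11.6 FPKM in S51A, against 0.222, 0.328 and 0.301 FPKM in WT. Mfhas1, a leucine-rich repeat protein with a GTPase-like domain, had 9.99, 8.69 and 5.28 FPKM in S51A, against 0.660, 0.807 and 0.595 FPKM in WT. Serpinb1a, an inhibitor of neutrophil proteases with several close relatives, had 16.0, 18.9 and 15.0 FPKM in S51A, against 0.763, 0.460 and 0.859 FPKM in WT. Cnn1, the actin-binding protein calponin of smooth muscle, had 11.8 to 15.8 FPKM in S51A and 0.409 to 0.697 FPKM in WT, with the highest q-values of the set at 0 and 15 min in the authors' deposited tables. Its deposited locus spans 333747 bp and covers 11 other coding genes. The last 3 genes are little described. Ccdc122 had 5.82, 6.02 and 8.28 FPKM in S51A, against 0.0909, 0.0487 and 0.218 FPKM in WT. Lrrc75b had 8.06 to 14.6 FPKM in S51A and 0.0587 to 0.1 FPKM in WT, and Fam189b had 5.50 to 5.82 FPKM in S51A and 0.398 to 0.796 FPKM in WT.

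Imprinted genes, the insulin-like growth factor system and the cadherins shared no gene with the set, and their listed genes differed in both directions. Imprinted genes were 14 higher and 13 lower in S51A at 0 min, 15 and 15 at 15 min, and 12 and 12 at 120 min. The insulin-like growth factor system was 4 higher and 5 lower, 5 and 8, and 3 and 6 at the 3 times. Cadherins and protocadherins were 3 higher and 2 lower, 3 and 3, and 2 and 3.

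The response of the 40 genes to hydrogen peroxide was followed within the S51A line. The rule asked for at least 5 FPKM at every time and so left out genes that fell below it. The changes are therefore a description, and nothing is read from them against the other genes. Changes are log2 of FPKM plus 1, centred on the median of all genes listed at both times, and the tables may have been scaled separately. At 15 min over 0 min the median change was 0.06, and every gene lay between -0.20 (Mfhas1) and 0.29 (Aldh3b1). None changed 2-fold, while 0.0471% of the 6369 genes listed at both times were at least 2-fold higher and 0.0314% at least 2-fold lower. The middle range of the 40 genes, between the lower and upper quartile, was 0.01 to 0.11, against -0.08 to 0.07 for all genes. At 120 min over 0 min the median change was 0.10, with 24 genes above 0 and 16 below. The quartiles were -0.42 and 0.35 for the 40 genes and -0.41 and 0.45 for the 4328 genes listed at both times. Of the 40 genes, 1 was at least 2-fold higher and 1 at least 2-fold lower. Of all genes listed at both times, 11.5% were at least 2-fold higher and 6.22% at least 2-fold lower. The lower one was Rgs4 (-1.54). The uncentred values put all listed genes at -0.18 and the 40 genes at -0.08.

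High values at 120 min were those of Npepl1 (0.62), Ccdc122 (0.62), Usp18 (0.61), Insl6 (0.59) and Cbr3 (0.55). The next lowest were Cables1 (-0.92), Steap4 (-0.78), Sorcs2 (-0.73), Mfhas1 (-0.63) and Il1rn (-0.53). Transcript length moved with the direction. The median longest annotated transcript was 1.98 kb for the 24 genes above 0 and 3.78 kb for the 16 below, and across all listed genes it was 2.55 kb above and 4.50 kb below the median change. Its part in the changes was not tested. In WT, the rule held the same genes to at most 1 FPKM at every time. Their median change was 0.15 at 120 min over 0 min, with a range of -0.41 to 0.52. The WT limit and the pseudocount of 1 FPKM confine such changes, so this range is no measure of stability.

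**Figure D3:**
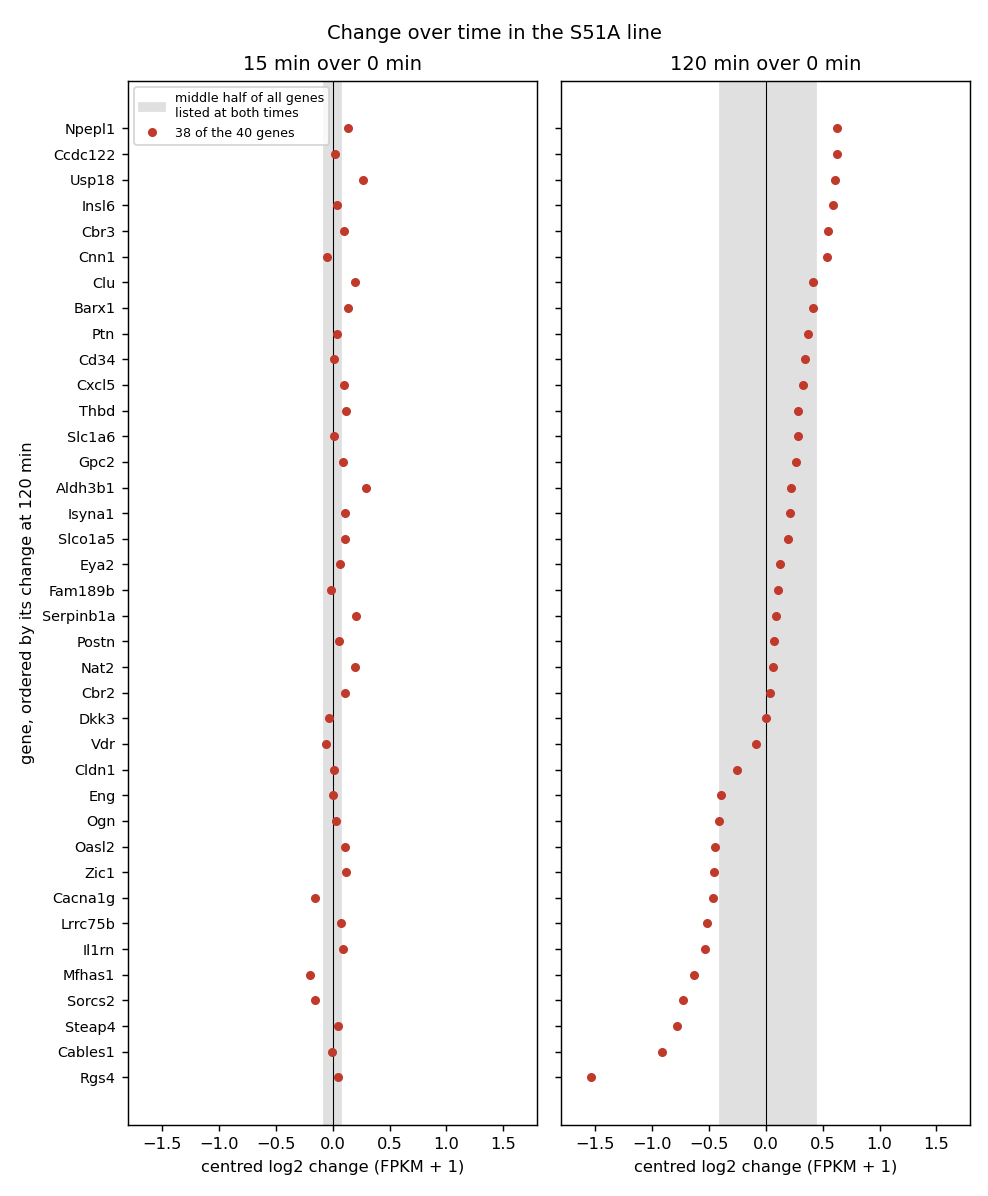
Centred log2 change of FPKM plus 1 in S51A for 38 of the 40 genes, at 15 min over 0 min (left) and 120 min over 0 min (right), ordered by the change at 120 min. The grey band is the range between the quartiles of all genes listed at both times; at 120 min Rgs4 (-1.54) lies farthest from 0.

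The 40 genes were spread over 16 chromosomes, with at most 5 on one. Only Barx1 and Ogn, on chromosome 13, started within 1 Mb of each other, 945 kb apart. Neighbours that are not in the set were examined next. A neighbour that met the rule would itself be in the set, so such genes are not counted here. Within 100 kb of the 40 genes lay 192 protein-coding genes, of which 72, 78 and 78 were listed at 0, 15 and 120 min. Of these, 43, 51 and 52 were higher in S51A, which is 59.7%, 65.4% and 66.7%, against 49.6%, 49.9% and 50.9% of all listed genes. Within 50 kb the shares were 71.1%, 73.8% and 76.5%. At least 2-fold higher in S51A were 27.8%, 32.1% and 38.5% of the listed neighbours within 100 kb, against 22.1%, 20.2% and 26.5% of all listed genes. Neighbours of 1 gene share a position and are not independent, and no test was made of these shares. The deposited loci of 9 of the 40 genes also cover another coding gene (Ccdc122, Cnn1, Eng, Gpc2, Ogn, Slc1a6, Slco1a5, Sorcs2 and Zic1), so reads may have been shared between some neighbours. How often the loci of all listed genes do so was not counted.

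**Figure D4:**
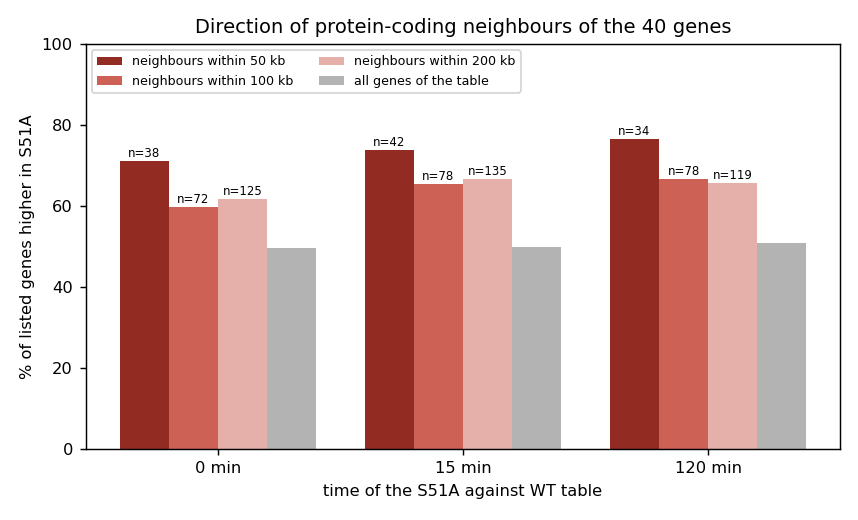
Percent of listed protein-coding neighbours that were higher in S51A, by time, for windows of 50, 100 and 200 kb around the 40 genes (red shades, n above each bar), beside all listed genes (grey). At 120 min the bars stand at 76.5%, 66.7% and 65.5%, against 50.9% for all listed genes.

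Start sites on opposite strands were compared in GENCODE M21. In 2 of the 40 genes another coding gene started within 1 kb on the other strand. The share of all listed genes with such a neighbour was not counted. Ccdc122 (chr14:77036772-77112263, plus strand) and Lacc1, an enzyme gene of macrophage metabolism, start 132 bp apart with overlapping first bases. The printed window holds the Ccdc122 start and ends before that of Lacc1. Lacc1 had 4.96, 5.62 and 3.97 FPKM in S51A, against 0 FPKM in WT at all 3 times, so both genes of the pair were low in WT. Gpc2 and Stag3, a cohesin subunit of meiosis, start 235 bp apart and point away from each other. Stag3 had 0.865 and 0.859 FPKM in S51A, against 0.0567 and 0.268 FPKM in WT, at 0 and 120 min, and was not listed at 15 min. Zic4 starts on the opposite strand, 3.40 kb from the Zic1 start and inside the Zic1 gene, so the genes overlap. Zic4 was listed at 120 min alone, at 1.62 FPKM in S51A and 0 FPKM in WT. Ggt1, 1.27 kb from Lrrc75b, was in no table. The libraries keep strand, per the labels' protocols, but whether the counting used it is not stated, so reads of overlapping opposite genes may have been exchanged.

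Other neighbours of named genes moved with them or against them. Pax8, 69.1 kb from Il1rn, had the values given above, with 0 in WT at every time. Ppbp, a platelet chemokine gene 6.89 kb from Cxcl5, had 15.7, 16.0 and 13.9 FPKM in S51A, against 1.02, 0.688 and 0.895 FPKM in WT. Aspn, a proteoglycan gene 40.5 kb from Ogn, was listed at 120 min alone, at 6.59 FPKM in S51A and 0.179 FPKM in WT. Cbr1, 72.9 kb from Cbr3, was expressed in both lines, at 26.7, 31.6 and 45.3 FPKM in S51A and 9.38, 8.51 and 9.58 FPKM in WT. Cd93, 28.5 kb from Thbd, was lower in S51A where listed, as Oasl1 was, 10.9 kb from Oasl2. At 15 and 120 min Cd93 had 0.0335 and 0.0647 FPKM in S51A, against 0.883 and 0.914 FPKM in WT.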

How the data were processed

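Polyadenylated RNA of 18 samples was sequenced from strand-specific libraries as single reads of 75 nt, per the labels' protocols. STAR, Cufflinks, Cuffdiff and genome mm10 were used, per the submitters' processing notes; versions, roles and annotation are not given in the sources used here. Per the file headers, the authors' 3 tables, 1 per time, hold log2 FPKM of each line, the log2 ratio (S51A over WT) and a q-value, with samples already combined into 1 value per group. All deposited q-values are at most 0.05, so absence of a gene says nothing about equal levels. A log2 FPKM of -10 was read as a group listed at 0. A column of ratios of log values, 1 per file, was not used. Depth per sample is unknown, and no interval can be given.

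Groups were taken from the sample labels. Levels were computed as powers of the deposited log2 FPKM, and no fold was given against 0. Entries with several symbols or symbols turned into dates were left out. Changes over time used a pseudocount of 1 FPKM, which understates changes of low genes, and centring on genes listed at both times. No test was made, since the tables hold group values and the rule used them. The members and lists were chosen with earlier results of these data known. Values at all times were given for the 10 genes with the highest geometric mean in S51A, the 6 with the highest and the 6 with the lowest change at 120 min, genes in a list or near another gene of the set, and those next to a limit; the rest are given as ranges. Positions and promoter windows are from RefSeq (GRCm38.p6) and start sites from GENCODE M21. The code that applies the selection rule was checked on simulated data, which does not test the choice of limits. Python 3.11.15, numpy 2.4.6, pandas 2.3.3 and matplotlib 3.10.9 were used. Alternatives covered the limits, the tables required, pseudocount, centring, fold, distances, CpG limits, q-values and overlapping loci. Of the 40 genes, 2 are not reported by name here.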

Additional observations from a re-analysis of the deposited data

How the results depend on the processing

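The number of genes depended on the limits. It was 40 as reported, 121 with an S51A limit of 2 FPKM and 19 with 10 FPKM. It was 22 with a WT limit of 0.5 FPKM, 96 with 2 FPKM and 2 with WT listed at 0 at every time. The table of 0, 15 or 120 min alone gave 113, 129 and 78. Requiring 2 tables gave 53, keeping sex chromosomes 40 and keeping name families 41. A q-value of at most 0.01 at every time gave 34 and leaving out loci that cover another coding gene gave 31, both chosen after seeing the data. The median change in S51A at 120 min was 0.10 centred and -0.076 without centring, which turned the sign of 6 genes (Cbr2, Eya2, Fam189b, Nat2, Postn and Serpinb1a). A pseudocount of 0.1 turned the sign of Dkk3. At 1.5-fold, 5 genes were higher and 5 lower, and without centring 2 were at least 2-fold lower. No gene of the set lay within 0.2 Mb of another, and the stricter CpG limits left 5 windows. Neighbours within 50 kb, a window chosen after seeing the data, were higher in S51A for 71.1% at 0 min, against 59.7% within 100 kb. No paired analysis was possible because the tables hold 1 value per group, and leaving out each replicate was not run for the same reason. Precision is unknown without sample values, and WT values near 0 make the folds imprecise.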
